A study of Mus musculus with 14 samples.

Results

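Broad H3K9cr domains are long unbroken stretches of chromatin in which histone H3 carries a crotonyl group on lysine 9. They were taken from the 8 H3K9cr peak lists of mouse kidney: autosomal peaks of at least 4000 bp were merged where they overlapped between lists, and a merged region was kept when at least 2 lists held such a long peak in it. This gave 1468 domains, out of 2465 regions with a long peak in any list and 70117 merged autosomal H3K9cr regions in all. The members were thus chosen by H3K9cr peak length, and all H3K9cr lengths below are given as description, without a test.

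The study mapped H3K9cr and acetylation of the same lysine (H3K9ac) by ChIP-seq, which sequences the DNA that an antibody pulls down, in order to compare fibrotic kidneys of mice with and without the enzyme ACSS2. All mice were C57BL/6J. ACSS2-/- mice carried a CRISPR/Cas9 deletion of ACSS2 in every cell, and WT mice were littermate controls. UUO (unilateral ureteric obstruction) kidneys had the left ureter tied and cut, and control kidneys are those titled C, which the methods describe as sham-operated. The length of obstruction for these animals was not given in the sources used here. The groups were WT control, WT UUO, ACSS2-/- control and ACSS2-/- UUO, each with 2 H3K9cr libraries. For H3K9ac there were 2 libraries per UUO group and a single library per control group. The labels give a catalogue number for each antibody that rises by 1 from group to group, for both marks, and the study's methods name 1 supplier for each mark. Whether different antibodies were used between groups is not given in the sources used here, and any such difference cannot be told apart from group.

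Crotonylation and acetylation of lysine 9 both neutralise the charge of the histone tail and mark active promoters and enhancers. Crotonyl groups come from crotonyl-CoA, and ACSS2 is an enzyme that makes short-chain acyl-CoA. Long stretches of active histone marks are known from genes that define a cell type, such as its transcription factors, and from genes that are transcribed at a high rate. The kidney is mostly proximal tubule, whose cells reabsorb solutes and burn fatty acids, and obstruction brings loss of tubule and entry of leukocytes. Whole kidney was used, so that a change in the number of cells of a type and a change in the mark within each cell cannot be told apart.

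Across the series, H3K9cr lists held 27530 to 45014 peaks and H3K9ac lists 15988 to 32760. In 4 of the 14 lists, all from UUO kidneys, the number within the peak names differs from the replicate number in the title, and titles were followed. Peaks on the Y chromosome, which the domains leave out, also differed between replicates. H3K9cr libraries 1 and 2 had 0 and 5 in WT control, 5 and 0 in WT UUO, 5 and 2 in ACSS2-/- control, and 14 and 0 in ACSS2-/- UUO. H3K9ac libraries had 4 in WT control, 0 and 0 in WT UUO, 3 in ACSS2-/- control, and 0 and 13 in ACSS2-/- UUO. In ACSS2-/- UUO the Y peaks went with the number in the peak names, since H3K9cr library 1 and H3K9ac library 2 both carry the number 3. The part of sex or of read depth in these Y peak counts, and in the values below, was not tested. The labels do not state that replicates are separate mice, and where they are not, the spread between libraries is technical.

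Among the sequences inside the domains, the miRNAs are shown first, because hairpins lie in domains that moved in opposite directions with UUO. The domains held 39 of the 919 autosomal hairpins of the RefSeq table (GRCm38.p6), in 35 domains. Of those 35 domains, 2 were longer in every UUO library than in every control library and 13 were shorter in every one. Over all 1468 domains the shares were 1.29% and 38.2%, so nothing particular to miRNA domains is read from these counts. Mature sequences follow 5′ to 3′, with the seed (bases 2 to 8) in capitals. The first pair come from the domains that were longer in UUO, at Mir21a and at Mir142, a gene of blood cells.
miR-21a-5p: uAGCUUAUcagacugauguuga
miR-142a-3p: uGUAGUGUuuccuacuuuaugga
The next come from domains that were shorter in every UUO library, and let-7b and let-7c share the seed GAGGUAG.
let-7b-5p: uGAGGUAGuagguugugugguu
let-7c-5p: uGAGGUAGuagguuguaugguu
miR-10a-5p: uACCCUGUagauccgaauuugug
miR-196b-5p: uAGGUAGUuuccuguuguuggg
Both miR-10a and miR-196b lie within Hox clusters. The seed of miR-196b, AGGUAGU, was shared by miR-196a, whose hairpin lies in the Hoxc10 domain, where the groups overlapped.
miR-196a-5p: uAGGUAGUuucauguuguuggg

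Promoters of a shortened and a lengthened domain are shown because their CpG content differed widely. Each runs 5′ to 3′ along the gene from 250 bases before to 50 bases after a start in the RefSeq table (GRCm38.p6), with every CG in capitals. Klf9, a zinc finger transcription factor, has this promoter window at chr19:23140976-23141275 on the plus strand with 28 CG pairs and an observed to expected CpG ratio of 0.962.
Klf9: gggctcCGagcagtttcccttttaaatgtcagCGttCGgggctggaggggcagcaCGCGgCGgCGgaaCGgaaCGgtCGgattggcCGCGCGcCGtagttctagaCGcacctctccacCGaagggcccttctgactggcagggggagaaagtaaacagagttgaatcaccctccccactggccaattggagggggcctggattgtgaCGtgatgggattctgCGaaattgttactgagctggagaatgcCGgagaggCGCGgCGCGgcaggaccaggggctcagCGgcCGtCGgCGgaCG
C1qc, a chain of complement C1q made by macrophages, has its window at chr4:136892865-136893164 on the minus strand with 3 CG pairs and a CpG ratio of 0.144.
C1qc: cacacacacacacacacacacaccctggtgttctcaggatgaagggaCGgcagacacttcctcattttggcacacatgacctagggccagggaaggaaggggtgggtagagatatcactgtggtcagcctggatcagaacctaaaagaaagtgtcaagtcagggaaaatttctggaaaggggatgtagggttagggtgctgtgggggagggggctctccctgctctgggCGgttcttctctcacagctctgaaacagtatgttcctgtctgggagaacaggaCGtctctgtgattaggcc
Over all 1028 starts within domains, the median CpG ratio was 0.719. It was 0.772 over 10979 starts in shorter H3K9cr regions and 0.586 over all 20084 autosomal starts in the table. The 12 starts, of 9 genes, in the domains longer in every UUO library had a median of 0.277. The 308 starts in domains shorter in every UUO library had a median of 0.677. The letters GAGGAAGT, searched on both strands as a form of the PU.1 site, occurred in 3 of the 12 promoters of lengthened domains, the C1qc promoter included, in 1.85% of all promoters in domains and in 3.18% of all promoters. It was one of several motifs searched. In the same 12 promoters the GC box occurred in 58.3%, the CCAAT box in 16.7% and the CRE in 8.33%. The TATA box and the ETS, AP-1, HNF4 and NF-kB sites occurred in 0%. The promoters are few, so nothing is read from any motif. Of the 20661 autosomal protein-coding genes, 16456 matched the promoter table.

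The merged domains had a median length of 6124.5 bp, with quartiles of 5124.75 and 7762 bp, and covered 10.4 Mb in all. The shortest was 4034 bp and the longest 46645 bp. Breadth was rarely present in all libraries. Of the 1468 domains, 467 held a long peak in exactly 2 lists, 241 in 4 and 116 (7.90%) in all 8, while 997 further regions had a long peak in 1 list only and were left out. At least 1 peak of any length was present in every H3K9cr list for 1386 domains (94.4%). The share was 34.2% for the 39238 shorter H3K9cr regions found in at least 2 lists. Domains were chosen by long H3K9cr peaks and are wider than the shorter regions, whose median was 1518 bp, so nothing is read from that difference. Just inside the threshold were the domains at Tril, Vps54 and Rtkn, whose second-longest peaks over the libraries were 4001, 4003 and 4003 bp. Just outside were regions near Ptma, Cry2 and Tnfrsf1a, each with a second-longest peak of 3999 bp.

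Most domains contained a gene start. A protein-coding start was inside 884 domains (60.2%), against 27.3% of the shorter regions, and 115 domains (7.83%) held at least 2 starts. A further 377 (25.7%) lay within a gene body and 128 (8.72%) between genes, against 42.1% and 27.7% of the shorter regions. Domains are longer than the regions they were set beside, and per Mb they held fewer starts, at 97.3 against 168.3. In all, 998 of 20661 autosomal protein-coding genes (4.83%) had a start in a domain.

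Some domains sat close together. Of the 1468 domains, 592 (40.3%) lay within 50 kb of another, in 236 clusters, with at most 6 domains in a cluster. The median distance from a domain to the next was 357 kb. The same share was not computed for shorter regions, so no closeness particular to the domains is read from it. One cluster of 6 ran from Ssbp4 to Rab3a over chr8:70606807-70756146 and included Gdf15, a secreted stress-response protein, and Jund, a subunit of the AP-1 transcription factor. The Hox genes, which set position along the body axis and stay active in adult kidney, supplied the longest domains. Of 39 autosomal Hox genes, 21 had a start in a domain, in 8 domains. The longest domain by merged length held 7 starts from Hoxb9 to Hoxb3 (chr11:96275405-96322049), with miR-10a inside it. H3K9cr peaks there reached 22130 and 19551 bp in WT control, 19232 and 17358 bp in WT UUO, 45645 and 19832 bp in ACSS2-/- control, and 16707 and 14918 bp in ACSS2-/- UUO. The UUO libraries were below the control libraries throughout, and 1 ACSS2-/- control library stood far above the rest.

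The other domains among the 10 of largest mean length included further regulators. They were Hoxa9, a domain between genes near Ppara, the body of Tns1 (a focal adhesion protein), Pim3 (a serine/threonine kinase), the Neat1 long noncoding RNA near Frmd8, Smad7 (an inhibitor of TGF-beta signalling), Zfp503, Adgrg1 and Zmynd8. Smad7 peaks were 13667 and 12438 bp in WT control, 14069 and 9307 bp in WT UUO, 14766 and 14035 bp in ACSS2-/- control, and 9212 and 9643 bp in ACSS2-/- UUO. The groups overlapped in WT and did not in ACSS2-/-. Malat1, an abundant nuclear RNA, was another noncoding gene with a broad domain (chr19:5794633-5820357), at 10194 to 12892 bp in 7 of the libraries and 5962 bp in 1 ACSS2-/- UUO library.

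Within each library, the longest peak in a domain served as the length of that domain, with 0 where no peak overlapped. The median over the 1468 domains was 4063 and 4106 bp in WT control, 3698.5 and 2877.5 bp in WT UUO, 5417 and 4778.5 bp in ACSS2-/- control, and 3175.5 and 2545.5 bp in ACSS2-/- UUO. ACSS2-/- control libraries were the longest and ACSS2-/- UUO libraries among the shortest. The UUO medians lay below the control medians in both genotypes. As group means of medians, WT went from 4084.5 ± 30.4 bp (SD, n = 2) to 3288 ± 581 bp (SD, n = 2) and ACSS2-/- from 5097.75 ± 451 bp (SD, n = 2) to 2860.5 ± 445 bp (SD, n = 2). On the log2 scale these ratios were -0.31 in WT and -0.83 in ACSS2-/-. The WT value was -0.55 without WT UUO library 1 and -0.16 without WT UUO library 2. Few domains lacked the mark altogether, since between 0.204% and 3.61% of domains had no H3K9cr peak in a library. The number still reaching 4000 bp was 762 and 783 in WT control, 648 and 396 in WT UUO, 1329 and 1107 in ACSS2-/- control, and 483 and 236 in ACSS2-/- UUO.

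The same libraries differed across all H3K9cr regions. Over the shorter regions, the mean of the longest peak was 761 and 820 bp in WT control, 836 and 663 bp in WT UUO, 1208 and 942 bp in ACSS2-/- control, and 734 and 546 bp in ACSS2-/- UUO. A shorter region without a peak in a library counted as 0 in this mean. Such regions made up 38.3% and 33.0% in WT control and 33.3% and 43.2% in WT UUO. In ACSS2-/- they made up 18.5% and 30.7% in control and 37.2% and 49.1% in UUO. Scaling by this mean thus takes in absent peaks as well as peak length. Dividing each domain length by the library-wide mean over the shorter regions gave medians of 4345 and 4074 bp, 3599 and 3532 bp, 3649 and 4126 bp, and 3522 and 3797 bp in the same order. After this scaling the WT UUO libraries remained below the WT control libraries, at a log2 ratio of -0.24. In ACSS2-/- the ratio shrank to -0.09, with the groups overlapping. ACSS2-/- against WT turned from 0.32 to -0.11 in control and from -0.20 to 0.04 in UUO, since the shorter regions differed between the genotypes in the same direction as the domains. Read depth is unknown from peak lists, and its part in these library-wide differences was not tested.

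**Figure D1:**
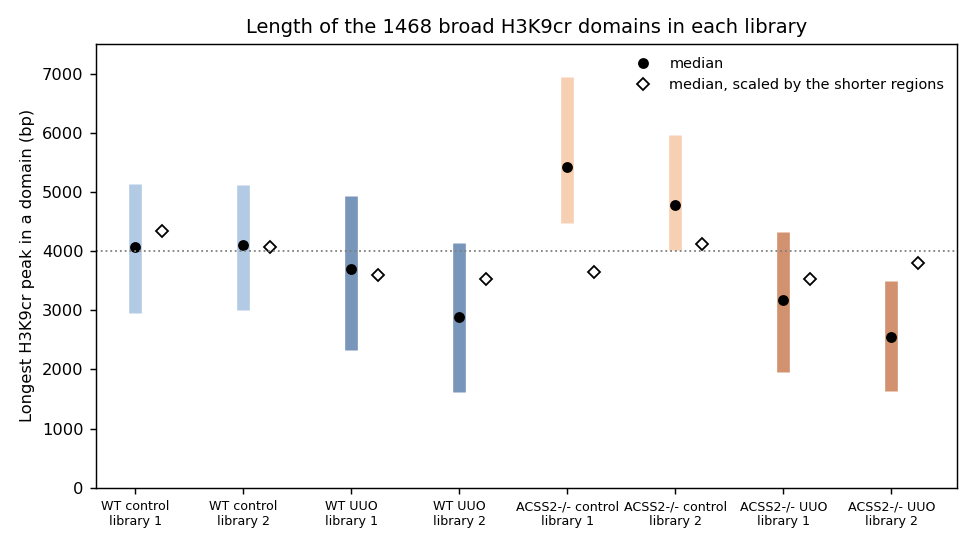
Longest H3K9cr peak per domain (bp, linear axis) in each of the 8 H3K9cr libraries over the 1468 domains. Bars span the lower to upper quartile, filled points are medians, open diamonds are medians after dividing by the mean length in the shorter regions, and the dotted line marks 4000 bp. Unscaled medians run from 2545.5 to 5417 bp, and scaled medians from 3522 to 4345 bp.

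Shortening in UUO was the common direction, and few domains lengthened. Of the 1468 domains, 561 were shorter in every UUO library than in every control library, over both genotypes, and 19 were longer. The domains and the 39238 shorter regions found in at least 2 lists make up 40706 H3K9cr regions, called all regions below. Over these the same calls were made for 13.0% and 2.12%. H3K9cr lengths chose the members, so nothing is read from the difference. After scaling by the shorter regions, 306 domains were shorter and 114 longer. Of the unscaled calls, 303 of the 561 shorter and all 19 longer domains remained. The count of 19 was 10 without WT UUO library 1, 39 without ACSS2-/- control library 1 and 58 without ACSS2-/- UUO library 2. With a library left out, fewer had to separate, which by itself can raise a count. Within WT, 710 domains were shorter in both UUO libraries and 224 longer, against 22.5% and 18.6% of all regions. Within ACSS2-/- the numbers were 1129 shorter and 40 longer, against 44.1% and 5% of all regions.

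The largest increase over both genotypes was at Mir21a, which lies within the body of Vmp1 (chr11:86573489-86589302). miR-21 is a small RNA known to rise in fibrotic kidney. H3K9cr length there was 6461 and 10872 bp in WT control, 15814 and 13379 bp in WT UUO, 4902 and 6218 bp in ACSS2-/- control, and 15220 and 11690 bp in ACSS2-/- UUO. Every UUO library was longer than every control library in both genotypes. The C1qc domain, which also holds the start of C1qa (chr4:136889171-136898717), had no H3K9cr peak in any control library. It measured 9547 and 5281 bp in WT UUO and 3017 and 2161 bp in ACSS2-/- UUO. The ACSS2-/- UUO libraries were both shorter there than the WT UUO libraries. Only the WT UUO libraries reached 4000 bp, so the choice of domains by length fixed these directions at C1qc.

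Other lengthened domains stood at genes of myeloid and antigen-presenting cells. The Mir142 domain (chr11:87747863-87757732) measured 0 and 537 bp in WT control, 4540 and 9870 bp in WT UUO, 813 and 414 bp in ACSS2-/- control, and 2768 and 2665 bp in ACSS2-/- UUO. Spi1, which encodes the myeloid transcription factor PU.1 (chr2:91081679-91088276), measured 1321 and 866 bp, 6117 and 3694 bp, 1734 and 938 bp, and 6374 and 3353 bp in the same order of groups. At Spi1 the genotypes overlapped in UUO. Cd74, the invariant chain of MHC class II (chr18:60802815-60808311), measured 644 and 503 bp, 5296 and 4451 bp, 0 and 428 bp, and 1955 and 1849 bp. H2-Ab1, an MHC class II chain (chr17:34260399-34265724), measured 889 and 651 bp, 5326 and 4687 bp, 1877 and 1195 bp, and 4161 and 3376 bp. For both MHC class II genes the ACSS2-/- UUO lengths lay below the WT UUO lengths. The Mir142 and Cd74 domains reached 4000 bp only in the WT UUO libraries, and H2-Ab1 and Spi1 only in UUO libraries. The choice of domains by length thus fixed the UUO and genotype directions at Mir142 and Cd74. Others of the 19 were at or nearest to Shisa5, Efhd2, Il10ra (an interleukin-10 receptor chain), Gramd3, Arl4c, Cebpb (a pair of domains distal to this inflammatory transcription factor), Plekho1, Akna, Furin (a proprotein convertase), Rhog and Gvin1.

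Leukocyte markers moved with these domains as a group. Of 20 leukocyte genes, 5 had a start in a domain (C1qa and C1qc in the same one, Coro1a, Cd74 and H2-Ab1), and 3 of those 4 domains were longer in every UUO library. All 4 reached 4000 bp in UUO libraries only and became members through them, so nothing is read from that count. The fourth, Coro1a, an actin regulator of leukocytes, measured 0 and 0 bp in WT control, 4782 and 3873 bp in WT UUO, 1556 and 0 bp in ACSS2-/- control, and 4218 and 1235 bp in ACSS2-/- UUO. Over the whole list, counted within 1 kb of a start, between 1 and 4 genes had an H3K9cr peak in a control library and between 11 and 15 in a UUO library. The summed bases under peaks went from a range of 0.442 to 3.95 kb to a range of 12.8 to 23.7 kb. Cd79a, Cd8a, Itgam, S100a8 and S100a9 had no H3K9cr peak in any library. The part of leukocyte number in the lengthened domains was not tested.

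The largest decreases over both genotypes were at Hoxa9, Pim3, Klf9, Hoxb6 and Sdc4. Klf9 (chr19:23131254-23148497), whose promoter is printed above, measured 15434 and 15616 bp in WT control, 5854 and 5210 bp in WT UUO, 17244 and 13703 bp in ACSS2-/- control, and 5697 and 5197 bp in ACSS2-/- UUO. The longest UUO library, at 5854 bp, was far below the shortest control library, at 13703 bp. Sdc4, a cell-surface heparan sulfate proteoglycan (chr2:164428271-164444680), went from 13860 to 15745 bp over the control libraries to 2857 to 8432 bp over the UUO libraries. Hoxa9 (chr6:52207092-52241579), with miR-196b inside its domain, measured 27690 and 20039 bp in WT control, 12264 and 7826 bp in WT UUO, 33306 and 17441 bp in ACSS2-/- control, and 12977 and 15980 bp in ACSS2-/- UUO. Within UUO, the ACSS2-/- libraries were longer than the WT libraries at Hoxa9.

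Other shortened domains lay in gene bodies and at secreted or signalling proteins. A domain in the body of Lrmda (chr14:22625073-22635748) measured 9989 and 8266 bp in WT control, 1018 and 503 bp in WT UUO, 10568 and 10312 bp in ACSS2-/- control, and 730 and 1008 bp in ACSS2-/- UUO. Timp3, a tissue inhibitor of metalloproteinases (chr10:86293789-86306129), went from 10030 to 12341 bp over control libraries to 2056 to 3784 bp over UUO libraries. Fgf1, a fibroblast growth factor (chr18:38915992-38930605), went from 7292 to 14614 bp to 2345 to 3441 bp. Txnip, an inhibitor of thioredoxin (chr3:96550229-96567856), measured 15030 and 16006 bp in WT control and 9479 and 3862 bp in WT UUO, with 17202 and 8990 bp and then 6152 and 4835 bp in ACSS2-/-, so that it was shorter within each genotype and overlapped between them. Pim3 (chr15:88849424-88877701) showed its drop mainly in ACSS2-/-, from 23172 and 27854 bp to 7437 and 7610 bp, against 11904 and 11548 bp to 11062 and 4173 bp in WT.

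**Figure D2:**
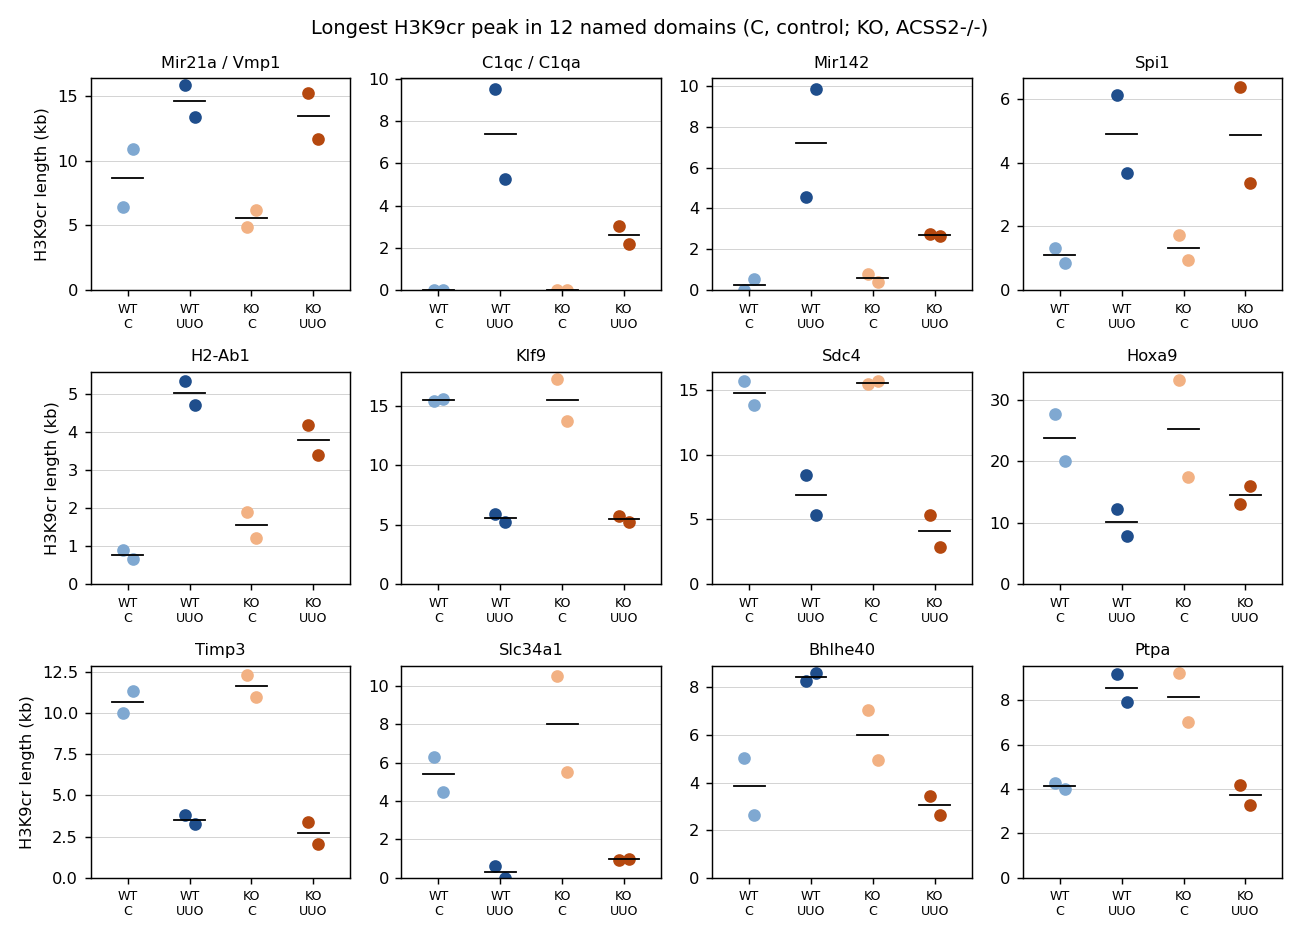
Longest H3K9cr peak (kb, linear axes from 0, scaled per panel) in 12 named domains, with 1 point per library and a bar at the mean of the 2 libraries of a group. The first 5 panels are higher in UUO, the next 5 lower, and Bhlhe40 and Ptpa rise in WT and fall in ACSS2-/-.

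Domains at proximal tubule genes were shorter in UUO, as most domains were. Of 24 proximal tubule genes, 10 had a start in a domain, all 10 had a lower mean length in UUO, and 5 of the 10 were shorter in every UUO library. Over all 1468 domains, 85.3% had a lower mean length and 38.2% were shorter in every UUO library. The median of their differences in length, UUO minus control, was -4120 bp, beside -1630 bp over all domains. Slc34a1, the phosphate transporter NaPi-IIa (chr13:55397742-55408420), measured 6283 and 4492 bp in WT control, 597 and 0 bp in WT UUO, 10508 and 5505 bp in ACSS2-/- control, and 950 and 979 bp in ACSS2-/- UUO. The other 4 that did not overlap were Slc22a8 (an organic anion transporter), Slc13a3 (a dicarboxylate transporter), Fbp1 (a gluconeogenic enzyme) and Cyp4b1. Pck1, another gluconeogenic enzyme of the list, overlapped by 1 library, at 5673 and 5929 bp in WT control, 1418 and 985 bp in WT UUO, 9906 and 3052 bp in ACSS2-/- control, and 3260 and 2751 bp in ACSS2-/- UUO. Over the whole list, between 21 and 24 of 24 genes had an H3K9cr peak within 1 kb of the start in a control library and between 8 and 18 in a UUO library, with 32.2 to 42.2 kb and 9.05 to 18.1 kb under peaks. The part of tubule loss in these domains was not tested.

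Domains at transcription factors of the kidney had the same direction as domains in general. Of 31 listed factors, 15 had a start in a domain, all 15 had a lower mean length in UUO, beside 85.3% of all domains, and 5 were shorter in every UUO library, beside 38.2%. Among them were Pax2, Emx2, Esrrg and Ppara, the last a nuclear receptor that drives fatty acid oxidation. The Ppara domain at the gene start (chr15:85721435-85737963) measured 6802 and 6376 bp in WT control, 2858 and 2196 bp in WT UUO, 10696 and 7051 bp in ACSS2-/- control, and 3457 and 3285 bp in ACSS2-/- UUO. Of the 2 fatty acid oxidation genes with a domain, out of 20 listed, Acsl1 was shorter in every UUO library and Cpt1a overlapped. Acsl1, which activates long-chain fatty acids, measured 5085 and 3341 bp in WT control, 399 and 474 bp in WT UUO, 5901 and 3083 bp in ACSS2-/- control, and 1103 and 1518 bp in ACSS2-/- UUO.

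Immediate early and stress-response genes had the highest share of domains of any list and no domain that moved in every library. Of 28 genes, 18 had a start in a domain (64.3%), beside 4.83% of all protein-coding genes, with 9 of the 18 longer and 9 shorter by mean. Ier2 (chr8:84659552-84666166) was between 5927 and 6519 bp in all 8 libraries. Fos, an AP-1 subunit, measured 3196 and 3387 bp in WT control, 4356 and 4025 bp in WT UUO, 3079 and 3514 bp in ACSS2-/- control, and 3654 and 3380 bp in ACSS2-/- UUO. The Fos domain was longer in both UUO libraries of WT and overlapped in ACSS2-/-. Socs3, a feedback inhibitor of cytokine signalling, measured 2936 and 2555 bp, 5954 and 8718 bp, 2515 and 2876 bp, and 10830 and 2692 bp in the same order. Its 2 ACSS2-/- UUO libraries were far apart.

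Of the lists with few domains, the matrix and TGF-beta list had 7 of 22 autosomal genes in 6 domains, with Timp3 shorter in every UUO library. The list of injured tubule genes had 2 of 15 (Spp1 and Cd24a), the distal nephron list 2 of 22 (Umod and Wnk1) and the endothelial list 1 of 14 (Egfl7). Of 25 abundant transcripts of all cells, 9 had a domain, with 1 (Actg1) shorter in every UUO library. No podocyte gene of 8, no stromal gene of 12 and none of 19 autosomal genes for crotonylation writers, erasers and readers had a start in a domain. Il1b and Il1r1, the interleukin-1 genes that the study followed, and Acss2 had none either.

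Domains were longer in ACSS2-/- than in WT control kidneys before scaling, whereas in UUO kidneys the median lengths of the genotypes overlapped. In control kidneys, 743 of the 1468 domains were longer in both ACSS2-/- libraries than in both WT libraries and 38 were shorter, against 32.1% and 4.43% of all 40706 regions. In UUO kidneys, 141 were longer and 376 shorter, against 6.39% and 18.5% of all regions. The log2 ratio in UUO was -0.20, and was -0.00038 without WT UUO library 1, -0.05 without ACSS2-/- UUO library 2, -0.36 without WT UUO library 2 and -0.37 without ACSS2-/- UUO library 1. In control it was 0.32, and 0.17 without ACSS2-/- control library 1. Scaled by the shorter regions, both ratios changed sign, to -0.11 in control and 0.04 in UUO. That scaling counts absent peaks of the shorter regions as 0, so it takes in more than peak length. The comparisons share libraries with those of UUO against control.

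In control kidneys the largest gains with ACSS2 deletion were at Tns1, Pim3, Cxxc5, Hoxc10 and Hoxd9. Cxxc5, a CpG-binding zinc finger protein (chr18:35827483-35851666), measured 9868 and 12044 bp in WT and 21332 and 18352 bp in ACSS2-/-. The losses included Hs6st1, at 11102 and 12345 bp in WT and 8786 and 6997 bp in ACSS2-/-, and Fosl2, an AP-1 subunit, at 7363 and 7511 bp and 5470 and 5248 bp. In UUO kidneys the largest losses were at C1qc, which became a member through the WT UUO libraries alone, Irf2bp2, Myh9, a domain near Tomm20, and Bhlhe40. Irf2bp2, a transcriptional corepressor (chr8:126582926-126598739), measured 15814 and 14414 bp in WT UUO and 10753 and 7338 bp in ACSS2-/- UUO. The Myh9 domain (nonmuscle myosin heavy chain, chr15:77811975-77823890) measured 11916 and 9238 bp and 7040 and 4145 bp. The gains in UUO included Pex16, a peroxisome assembly factor (chr2:92369626-92376669), at 2621 and 2473 bp in WT and 6721 and 6202 bp in ACSS2-/-, and Ttc36 at 2247 and 2046 bp and 4146 and 4742 bp. Control libraries of both genotypes measured 6373 to 6893 bp at Pex16, so that the WT UUO libraries alone stood apart.

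A further set of domains changed with UUO in opposite directions in the 2 genotypes. In 81 domains, both WT UUO libraries were longer than both WT controls and both ACSS2-/- UUO libraries were shorter than both ACSS2-/- controls, against 3.66% of all regions. The reverse pattern occurred in 0 domains, against 0.160% of all regions. Bhlhe40, a circadian and stress-response repressor (chr6:108657276-108666233), measured 5025 and 2655 bp in WT control, 8254 and 8605 bp in WT UUO, 7059 and 4953 bp in ACSS2-/- control, and 3442 and 2654 bp in ACSS2-/- UUO. Ptpa, an activator of protein phosphatase 2A (chr2:30436728-30448689), measured 4282 and 4012 bp, 9196 and 7924 bp, 9256 and 7031 bp, and 4201 and 3292 bp. At Ptpa the ranges of ACSS2-/- control and WT UUO overlapped, as did those of WT control and ACSS2-/- UUO. Col4a1 and Col4a2, the paired genes of basement membrane collagen (chr8:11308995-11316387), measured 3401 and 2926 bp, 5631 and 5815 bp, 5993 and 4968 bp, and 4016 and 2964 bp. Gdf15, Pax8, Jund, Klf6, Eef2, Wnk1, Per1 and Irf2 were also among the 81. The count was 124 without WT control library 1, 150 without WT control library 2, 204 without WT UUO library 2 and 141 without ACSS2-/- UUO library 1. In these settings fewer libraries had to separate, which by itself can raise the count. After scaling by the shorter regions, 17 of the 81 kept the pattern, Bhlhe40 and Ptpa among them and the Col4a1 and Col4a2 domain not.

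Around gene starts, the domains reached further into the gene than upstream. In the 623 domains with a single protein-coding start of known strand, the peak over the start extended a median of 1143 and 1195 bp upstream and 2481 and 2742 bp downstream in WT control. In WT UUO it extended 1101 and 983 bp upstream and 2509 and 2183 bp downstream. ACSS2-/- control had 1577 and 1459 bp upstream and 3659 and 2947.5 bp downstream, and ACSS2-/- UUO had 1036 and 901 bp and 2296 and 1826 bp. WT control and WT UUO overlapped in the downstream arm. The H3K9ac peak over the same starts extended downstream by 3124.5 bp in WT control and 3779 bp in ACSS2-/- control, and by 1830 to 2672 bp in the 4 UUO libraries. At 2000 bp into the gene, 74.2% to 87.3% of these domains were under an H3K9cr peak in control libraries and 52.6% to 70.6% in UUO libraries. The same shares for H3K9ac were 82.0% to 89.9% and 50.7% to 73.7%.

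**Figure D3:**
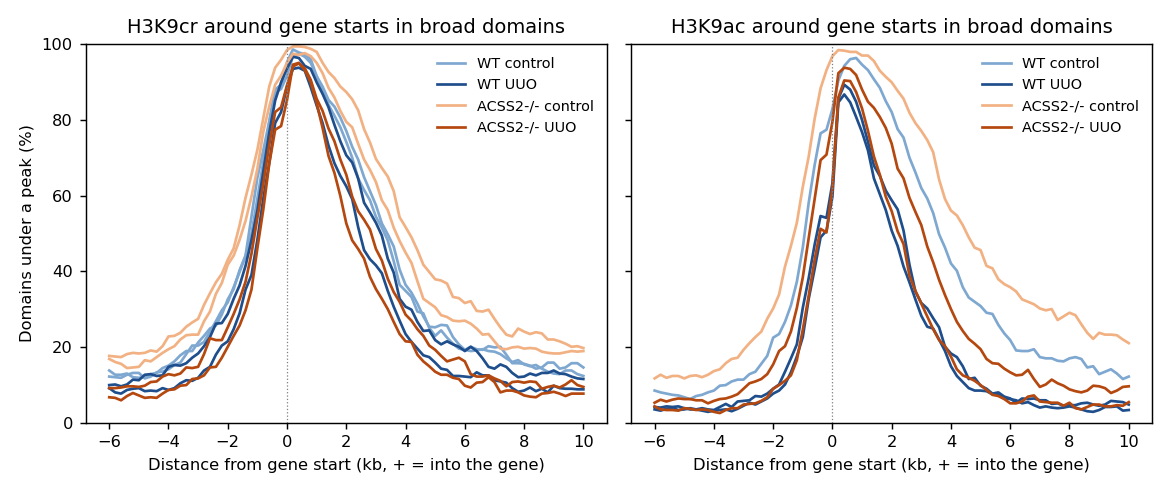
Percent of the 623 domains with a single coding start that lie under an H3K9cr peak (left) or H3K9ac peak (right), against distance from the start in kb, with 1 line per library coloured by group. Curves are highest just inside the gene and fall more slowly into the gene than upstream; 2000 bp into the gene the H3K9ac control lines lie at 82.0% to 89.9% and the UUO lines at 50.7% to 73.7%.

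H3K9ac, which played no part in choosing the domains, covered them more fully than it covered shorter H3K9cr regions. The percent of domain bases under an H3K9ac peak was 59.9% in WT control, 32.1% and 36.1% in WT UUO, 73.8% in ACSS2-/- control, and 34.5% and 48.2% in ACSS2-/- UUO. In shorter regions it was 34.1%, 19.3% and 23.0%, 46.3%, and 20.8% and 31.7% in the same order. The domains were higher in 6 of 6 libraries, by 18.2 ± 6.69 points (SD, n = 6). An exact two-sided sign-flip permutation test gave p = 0.0313, the smallest that 6 libraries allow, and 0.0938 after Benjamini-Hochberg adjustment over 3 tests. The 6 libraries come from 4 groups and were measured over the same domains. Of the 1468 domains, 1060 (72.2%) had H3K9ac in all 6 lists and 14 had it in none.

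UUO libraries had less H3K9ac over the domains than control libraries. Cover was 66.8 ± 9.84% (SD, n = 2) in control and 37.7 ± 7.16% (SD, n = 4) in UUO, a difference of -29.1 points (exact two-sided permutation test, p = 0.0667, adjusted p = 0.1). That p is the smallest that 4 libraries against 2 allow, so this design could not pass 0.05. Over the shorter regions cover went from 40.2% to 23.7%, a UUO to control ratio of 0.590 beside 0.564 over the domains. Divided by the cover of shorter regions in the same library, the domains differed between UUO and control by -0.07 (exact permutation p = 0.333, n = 4 against 2). Cover was below both controls in every UUO library for 997 domains, against 24.0% of all 40706 regions, and above both for 6, against 0.197%. In UUO, ACSS2-/- libraries had 41.3 ± 9.66% (SD, n = 2) and WT libraries 34.1 ± 2.79% (SD, n = 2), a difference of 7.26 points (exact two-sided permutation test, p = 0.667, adjusted p = 0.667; the smallest possible is 0.333). That difference was 0.426 points without ACSS2-/- UUO library 2 and 14.1 points without ACSS2-/- UUO library 1. Between those groups, 427 domains were higher in both ACSS2-/- libraries and 31 lower, against 11.0% and 1.23% of all regions.

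**Figure D4:**
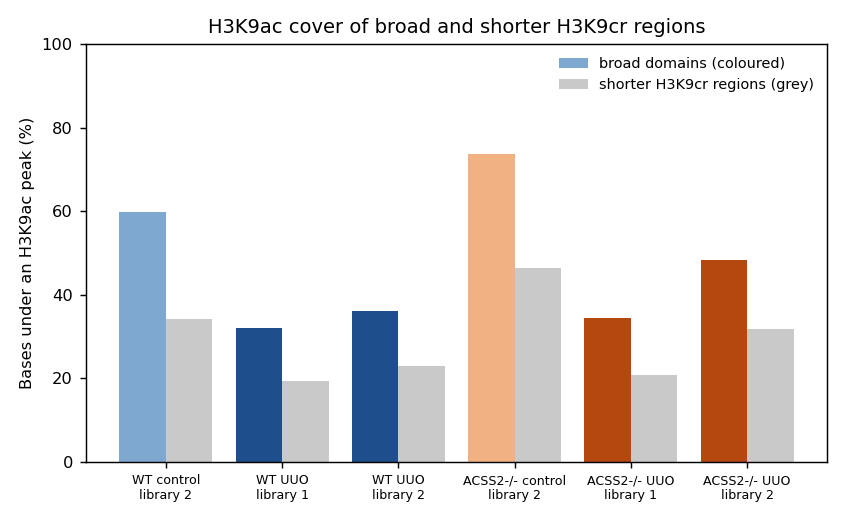
Percent of bases under an H3K9ac peak (axis from 0 to 100) in each of the 6 H3K9ac libraries, for the 1468 broad H3K9cr domains (coloured by group) and the 39238 shorter H3K9cr regions (grey). Domains lie above shorter regions in all 6 libraries, and both control libraries lie above all 4 UUO libraries.

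The largest losses of H3K9ac cover were at Kmt5a (a histone methyltransferase, in the gene body), a pair of Sord domains (sorbitol dehydrogenase), Hnf4a and Slc9a3. Hnf4a, a nuclear receptor of proximal tubule (chr2:163534630-163543313, in the gene body), had 94.7% cover in WT control and 95.4% in ACSS2-/- control, 0% and 3.6% in WT UUO, and 14.1% and 26.8% in ACSS2-/- UUO. Its H3K9cr lengths were 8449 and 8030 bp, 3366 and 1443 bp, 8367 and 5168 bp, and 1862 and 2137 bp in the order WT control, WT UUO, ACSS2-/- control and ACSS2-/- UUO. Both marks were lower in every UUO library. The Slc9a3 domain (the sodium-hydrogen exchanger NHE3, chr13:74120767-74127712) went from 96.9% and 98.2% to between 0% and 31.9%. For 9 of the 10 proximal tubule genes and 13 of the 15 transcription factors with a domain, H3K9ac cover was lower in every UUO library, beside 67.9% of all domains.

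The 6 domains with more H3K9ac cover in every UUO library were at C1qc with C1qa, Coro1a, Cd74, Gramd3, Zmynd15 with the chemokine gene Cxcl16, and Mir21a, of which the first 3 are on the leukocyte list. The C1qc domain had 3.3% cover in WT control, 20.9% and 57.4% in WT UUO, 14.9% in ACSS2-/- control, and 24.9% and 96.2% in ACSS2-/- UUO. All 4 UUO libraries were above both controls. At Cd74 cover was 14.2% and 10.3% in the controls and 30.8% to 71.0% in UUO. Of the 19 domains longer in every UUO library for H3K9cr, 15 had a higher mean H3K9ac cover in UUO, 4 of them without overlap, and none was lower in every UUO library. Over all 1468 domains, 3.81% had a higher mean cover in UUO, 0.409% without overlap, and 67.9% were lower in every UUO library. Several of the 19, C1qc, Mir142, Cd74, H2-Ab1 and Spi1 among them, became domains through UUO libraries only. The study's methods also have both marks coming from shared samples, so nothing is read from the difference between these shares.

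Across the 1468 domains, the change of cover from control to UUO in one mark went with that in the other. Pearson's r was 0.49 and Spearman's rho 0.45, given as a description, since domains are not independent, the study's methods have the marks coming from shared samples, and every domain shares the same libraries. Both marks were lower in UUO in 1226 domains (83.5%) and both higher in 49. The 14 domains with no H3K9ac in any list included sites in or near Pigr, Syn3, 4930505A04Rik, Nampt and Pde4d. The Pigr domain (the polymeric immunoglobulin receptor, chr1:130829650-130838918) measured 3334 and 8465 bp of H3K9cr in WT control, 1224 and 691 bp in WT UUO, 9269 and 3327 bp in ACSS2-/- control, and 413 and 492 bp in ACSS2-/- UUO. At the other end, Hnrnpul2, Brd2, Hnrnpa2b1, Ehbp1l1 and Wbp4, several of them genes of RNA handling and chromatin, had at least 81.8% cover in every H3K9ac library. Brd2, a reader of acetylated histones, kept H3K9cr lengths of 4339 to 6898 bp in all 8 libraries.

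**Figure D5:**
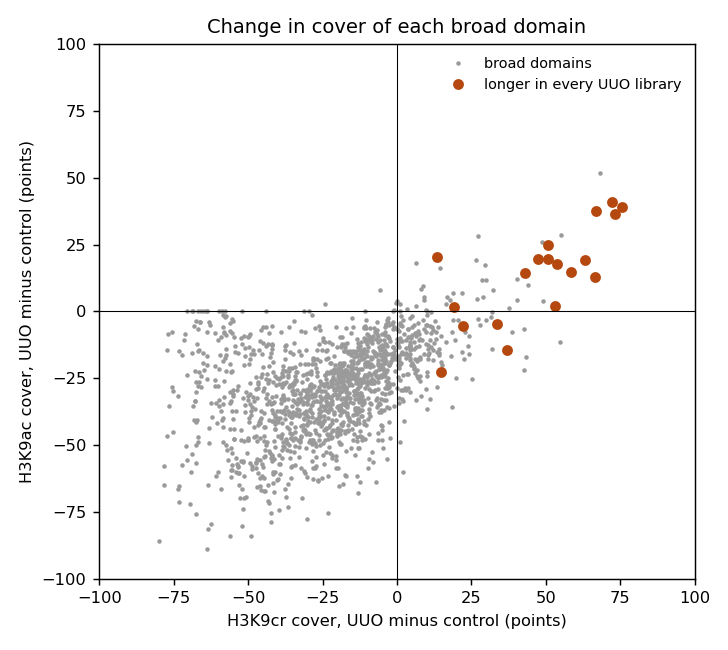
Change of cover (UUO mean minus control mean, percentage points) of H3K9cr (horizontal) and H3K9ac (vertical) for each of the 1468 domains, with the 19 domains longer in every UUO library as large points. Most domains lie in the lower left, where both marks were lower, and 15 of the 19 lie above 0 for H3K9ac.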

How the data were processed

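Mouse kidney H3K9cr (8 libraries) and H3K9ac (6 libraries) ChIP-seq were analysed. The authors dropped reads with adapter or of low quality, aligned the rest with Bowtie2, removed reads of low mapping quality, organelle reads and duplicates, and called peaks per library with MACS2 under a q-value limit. The submitters' processing notes give the build mm10, and tool versions are not given in the sources used here. The deposited lists hold peak positions only, with no score, signal or q-value, so depth and peak strength are unknown and no interval can be set on a length. A deeper library lets weaker flanks pass the threshold, which can lengthen peaks.

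Autosomal peaks sharing at least 1 bp were merged. The length of a domain in a library is its longest overlapping peak, and cover is the percent of its bases under peaks. Shorter regions are merged H3K9cr peaks in at least 2 lists that touch no domain. Groups were called different where no library of one overlapped the other. H3K9ac cover was compared by exact permutation over libraries. Genes were matched to RefSeq GRCm38.p6, which has the same coordinates as mm10, and each domain is named by the nearest protein-coding start. Named domains were those of largest mean length, of largest change in each comparison without overlap, of highest and lowest H3K9ac cover, at listed genes, and nearest to the length threshold. Some others of the 19 and 81 domains, the miRNA domains, Malat1 and the Hox clusters were chosen for description after their values were seen. The members and the 14 gene lists were chosen with earlier results of these data known.

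Alternatives were other length and list minimums, covered bases in place of the longest peak, and equal numbers of the longest peaks per list. Further ones were leaving out each library, choosing and measuring in different libraries, a replicate block and, added after seeing the data, scaling by the shorter regions. The region code was tested on simulated peaks and against bedtools 2.31.1. Scripts ran in Python 3.11.15 with SciPy 1.17.1 for statistics, matplotlib 3.10.9 for plots, and pandas 2.3.3 over numpy 2.4.6 for tables. A few domains withheld for evaluation are not reported here.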

Additional observations from a re-analysis of the deposited data

Results flagged for a closer look

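The 12 domains below come from the 81 that were longer in both UUO libraries of WT and shorter in both of ACSS2-/-. Over all regions that pattern occurred in 3.66%, and 1129 of the 1468 domains were shorter in UUO within ACSS2-/-. Listed are the 5 with the largest difference between genotypes and those at listed genes, near the length threshold or with a large change. The difference between the genotypes was not tested, since H3K9cr lengths chose the domains. The change in WT minus the change in ACSS2-/- was 8810 bp at Ptpa, 8426.5 bp at Fam53b, 8104 bp at Irf2bpl, 7547.5 bp at Bhlhe40 and 7066.5 bp at the domain nearest Cstad. It was 4796 bp at Eef2, a translation elongation factor, 4550 bp at Col4a2 and 3886 bp at Wnk1, a kinase of salt transport. It was 3339.5 bp at Klf6, 2722 bp at Jund, 2705 bp at Pax8 and 1155.5 bp at Rtkn. After lengths were divided by those of the shorter regions, 3 of these 12 domains (Ptpa, Fam53b and Bhlhe40) kept the pattern and the other 9 did not.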

How the results depend on the processing

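Of 165 alternative values, 119 were classed as the same, 37 moved, 6 kept their direction but passed no threshold and 3 reversed. The same meant within a standard error for a log2 ratio and within a set factor for a count. For H3K9ac cover it meant the same sign and the same side of the 0.05 limit, whatever the size. A log2 ratio of -0.00038 beside -0.20 was thus classed as the same. H3K9cr values with equal numbers of longest peaks were unchanged, since only the shortest peaks of a list were dropped. The H3K9ac comparisons between groups could not pass 0.05 in any setting, so their class rests on sign alone. A replicate block averages the same library values again, so it could hardly change them. The tally is therefore a description and does not measure how firm the results are. The number of domains was 3283 with a minimum length of 3000 bp, 773 with 5000 bp, 701 when at least 4 lists had to be long, and 752 when domains were chosen in the replicate 2 libraries. In the first 3 of these settings, 1076, 319 and 252 domains were shorter in every UUO library, 59, 9 and 4 were longer, and 179, 47 and 46 were longer in WT and shorter in ACSS2-/-. Domains chosen in the replicate 1 libraries and measured in the others gave 45 longer, 191 opposite and a log2 ratio of ACSS2-/- to WT control of 0.18. Those chosen in the replicate 2 libraries gave 48, 241 and 0.41, with a WT UUO to control ratio of -0.12. With 1 measured library per group, fewer libraries had to separate, so these counts are not like for like with the main ones. With covered bases in place of the longest peak, the ACSS2-/- UUO to control ratio was -0.56 and the ACSS2-/- to WT control ratio 0.21. Scaling by the shorter regions, chosen after seeing the data, gave 306 shorter, 114 longer and 26 opposite domains, a UUO to control ratio of -0.0874 in ACSS2-/-, and reversed ACSS2-/- against WT to -0.115 in control and 0.0374 in UUO. Cover of H3K9ac divided by that of the shorter regions reversed the ACSS2-/- against WT difference in UUO to -0.0261. The cause of these changes was not tested.

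Leaving out each library in turn gave log2 ratios from -0.55 to -0.16 for WT UUO against control, -1.03 to -0.62 in ACSS2-/-, 0.17 to 0.37 for ACSS2-/- against WT in control and -0.37 to -0.00038 in UUO. The number of domains ranged from 1106 to 1466, shorter domains from 401 to 721, longer from 10 to 58 and opposite from 84 to 204. Fewer libraries had to separate for these counts, which by itself can raise them. The H3K9ac difference between domains and shorter regions ranged from 16.4 to 19.3 points, each with an exact permutation p of 0.0625, the smallest that the remaining libraries allow. UUO against control ranged from -36.1 to -22.2 points. Libraries of the same title number did not deviate together for H3K9cr (correlations from -0.107 to 0.0865), while the single H3K9ac pair had a correlation of 0.19, so the title numbers were not taken to pair the samples. Numbers in the peak names differ from the titles in 4 lists and were not used for pairing. With a replicate block the log2 ratios were -0.32, -0.84, 0.32 and -0.20 in the order above, and the H3K9ac difference was 7.26 points.

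Peak lists carry no read depth or peak height, so a flank just under the peak caller's limit and one without the mark look the same, and a length change cannot be assigned to either. With 2 libraries in a group, no exact test between 2 such groups can pass 0.05.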
